A study of Mus musculus with 9 samples.

Results

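The numbered ligands and receptors of the tumor necrosis factor (TNF) superfamily were examined in RNA-seq data of RAW264.7 cells, a mouse macrophage-like leukemia line. Members were all rows of the FPKM table that are protein-coding genes in GENCODE M21 with a symbol that starts with Tnfsf or Tnfrsf followed by a number. The rule found 30 genes, 10 ligands and 20 receptors, among 28137 genes of the table, of which 16894 are protein-coding. The rule itself uses no measured value. Founding genes with other symbols, such as Tnf, Lta, Fas and Cd40, fall outside it and are given separately below.

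The study compared RAW264.7 cells given an siRNA against SFRP2, a secreted modulator of Wnt signaling, with cells given a control siRNA (NC). A further group received an siRNA against RAB6A, a small GTPase of Golgi transport. Each group had 3 libraries. Per the labels, cells in all groups took up 60 nM siRNA with a Lipofectamine reagent for 6 h, were kept in complete medium for 12 h, and were then polarized with lipopolysaccharide (LPS) at 100 ng/ml for 24 h, so that there was no group without siRNA or without LPS. The sample titles end in 6H, and which step this time belongs to is not stated in them. The study's text describes this treatment differently, with interferon gamma besides LPS and with another siRNA dose, and the labels were followed here. The labels do not say whether the 3 libraries of a group came from separate cultures. The p-values below therefore measure the spread between these libraries, which may be technical. All libraries came from the same cell line, and whether the SFRP2 siRNA libraries received the same siRNA or different ones is not stated.

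TNF superfamily ligands are mostly membrane proteins that act as trimers, on the cell surface or after shedding, and bind receptors with cysteine-rich outer domains. Some receptors carry a death domain and can start apoptosis or necroptosis, while others recruit TRAF adaptors and activate NF-kappaB and MAP kinases. Decoy receptors bind a ligand without a full signaling tail. In macrophages the family is known for TNF itself, a main product of LPS-stimulated cells, for costimulation of lymphocytes and for B cell survival factors.

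Values are FPKM, which are scaled to gene length and library size, so that levels of different genes can be set side by side. The read totals implied by the FPKM scaling ran from 32758719 to 47149277 per library. They were 41608386 to 47149277 in NC, 34743293 to 40562555 in SFRP2 siRNA and 32758719 to 37833885 in RAB6A siRNA libraries. Whole reads recovered from the FPKM summed to 22275191 to 33963422 per library. The targeted gene Sfrp2 had 2 reads in each NC library, 2 to 4 with SFRP2 siRNA and 3 to 4 with RAB6A siRNA. It was thus near 0 already in NC (0.0213 FPKM on average) and no lower with SFRP2 siRNA (0.0401 FPKM). Its knockdown could not be checked in these data. Rab6a was 25.7 ± 1.48 FPKM (SD, n = 3) in NC and 20.7 ± 0.445 FPKM in RAB6A siRNA libraries (log2 fold change -0.31 ± 0.06 SE, limma adjusted p = 0.0024), and the call was lost when GC content and length of the genes were corrected for (log2 fold change -0.09, limma adjusted p = 0.229). All 8 macrophage markers were detected, with a summed level of 4516 to 4982 FPKM in NC, 3998 to 4323 with SFRP2 siRNA and 3945 to 4097 with RAB6A siRNA. The 3 T cell markers measured (Cd3g, Cd4 and Cd8a) summed to at most 0.0617 FPKM in a library. The 4 fibroblast markers summed to 1.13 to 2.10 FPKM in NC, 1.47 to 2.23 with SFRP2 siRNA and 1.73 to 2.90 with RAB6A siRNA. Of the 3 tested there, limma called 2 higher than in NC, Col1a2 (log2 fold change 1.17, adjusted p = 0.0057) and Dcn (0.81, adjusted p = 0.045). Both were under 0.5 FPKM on average in NC (0.310 and 0.348) and above it with RAB6A siRNA (0.825 and 0.701). They were thus tested because of the group in which they were high. Without a minimum level Dcn was not called (limma adjusted p = 0.075). The 4 epithelial markers summed to 0.483 to 1.24 FPKM in NC, 0.308 to 1.18 with SFRP2 siRNA and 1.00 to 2.83 with RAB6A siRNA. Krt18, the 1 tested, was called higher against SFRP2 siRNA (log2 fold change 1.46, limma adjusted p = 0.0198) and not against NC (0.99, limma adjusted p = 0.0666). Krt18 too was tested because of the RAB6A siRNA libraries (0.886 FPKM, against 0.421 in NC and 0.277 with SFRP2 siRNA). In bulk RNA, fewer cells of a type and less RNA per cell cannot be told apart.

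In NC libraries, 5 members had a mean of at least 10 FPKM, 8 lay between 1 and 10, 3 between 0.5 and 1, and 14 below 0.5. Tnfrsf1b, which encodes TNF receptor 2, was the highest member at 60.0 ± 3.51 FPKM (SD, n = 3). Tnfrsf1a, the death domain receptor for TNF, followed at 39.5 ± 0.612 FPKM, Tnfrsf26 at 27.6 ± 0.324 FPKM, Tnfrsf23 at 22.6 ± 1.59 FPKM and Tnfsf9, the 4-1BB ligand, at 21.7 ± 0.827 FPKM. The libraries of Tnfrsf1b, Tnfrsf1a and Tnfrsf26 stood apart from those of the next member in this order, whereas those of Tnfrsf23 and Tnfsf9 overlapped. Below them the NC means were 7.58 FPKM for Tnfrsf22, 6.28 for Tnfrsf11a, 5.83 for Tnfrsf12a, 4.12 for Tnfsf12, 3.38 for Tnfrsf13b, 3.07 for Tnfrsf10b, 2.79 for Tnfrsf14 and 2.26 for Tnfsf13b. From Tnfsf12 down to Tnfsf13b each member overlapped the next. Over all 9 libraries, 14 members, 3 ligands and 11 receptors, reached a mean of 0.5 FPKM. The plot of levels by library shows these 14 members.

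**Figure D1:**
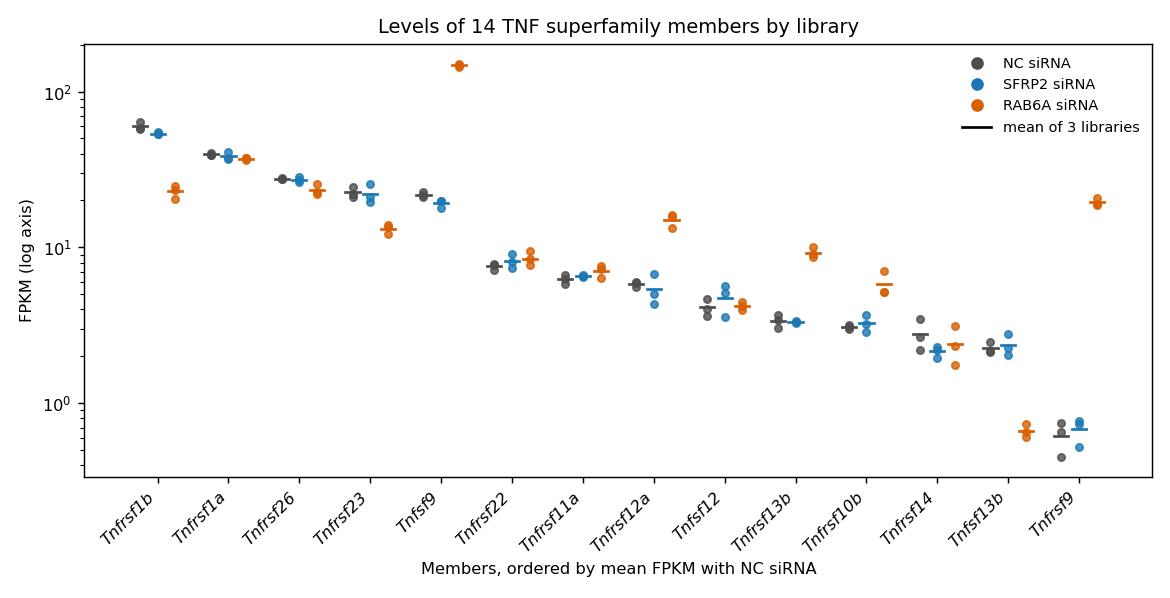
FPKM (log axis) of the 14 members with a mean of at least 0.5 FPKM over 9 libraries, ordered by their NC mean. Points are libraries and lines are means of 3 libraries. RAB6A siRNA libraries lay apart from both other groups for Tnfsf9, Tnfrsf9, Tnfrsf1b, Tnfrsf12a, Tnfrsf13b, Tnfsf13b, Tnfrsf23, Tnfrsf10b and Tnfrsf26.

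Between RAB6A siRNA and NC, the 4-1BB ligand Tnfsf9 and its receptor Tnfrsf9 rose, as did Tnfrsf13b, Tnfrsf12a and Tnfrsf10b. TNF receptor 2 (Tnfrsf1b), the B cell survival factor Tnfsf13b and the decoy receptor Tnfrsf23 fell, and Tnfrsf26 fell slightly. Genes were tested with limma on log2(FPKM + 0.1) where their mean reached 0.5 FPKM in the 6 libraries compared, and were called at a Benjamini-Hochberg adjusted p under 0.05 over all genes tested. Of 14 members tested, 9 (64.3%) were called, 5 higher and 4 lower, against 74.1% of all 12712 genes tested. With an absolute log2 fold change over 1 as a further condition, 6 members (42.9%) were called, 4 higher and 2 lower, against 30.1% of all genes. The 2 groups did not overlap for 10 of the 14 (71.4%), against 77.4% of all genes tested. The median absolute log2 fold change was 0.825 over the 14 members and 0.63 over all genes tested, and the signed medians were 0.10 and 0.03. All 14 members tested reached 0.5 FPKM in both groups, so that none was tested because of 1 group alone. Tnfrsf4 and Tnfrsf8 reached it in NC (0.735 and 0.575 FPKM) but not with RAB6A siRNA (0.0134 and 0.109). They were not tested, so that the counts by direction leave them out, and they are given below. The 9 calls stand in a comparison in which most genes were called.

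**Figure D2:**
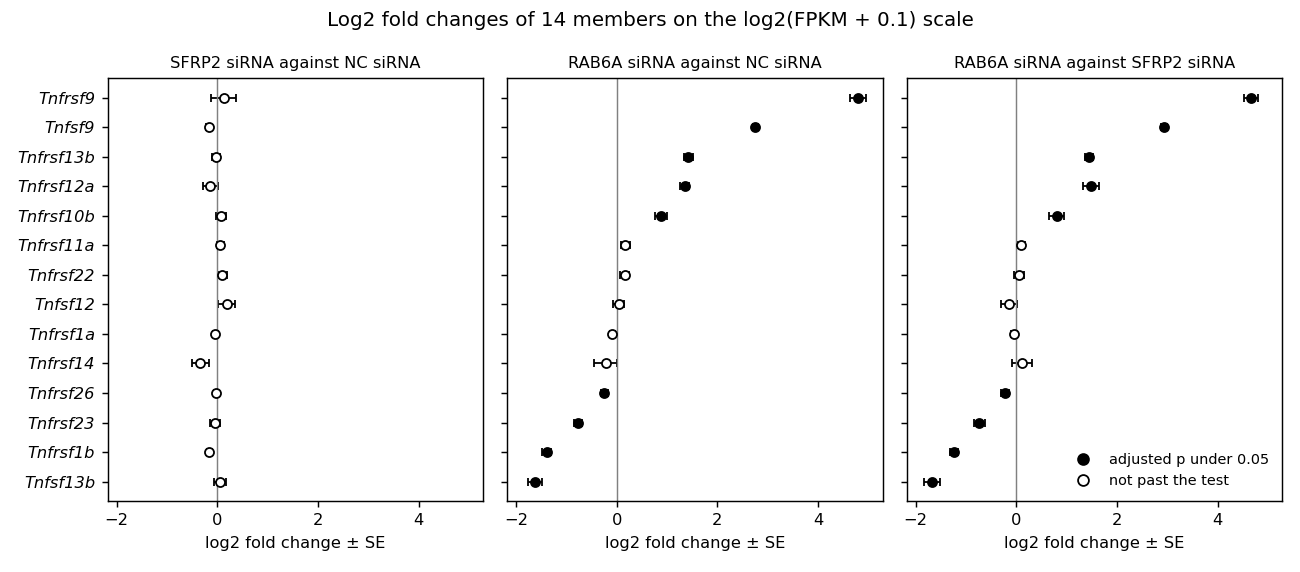
Log2 fold changes with their SE on the log2(FPKM + 0.1) scale for 14 members in each comparison. Filled points had a limma adjusted p under 0.05. With SFRP2 siRNA against NC no point is filled, and in both comparisons of RAB6A siRNA the same 9 members are, from Tnfsf13b (log2 fold change -1.62 against NC) to Tnfrsf9 (4.80).

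Tnfrsf9 encodes 4-1BB (CD137), a TRAF-binding costimulatory receptor best known on activated T cells, and spans bases 150914562 to 150946102 of chromosome 4 (GRCm38, + strand). Its levels were 0.653, 0.452 and 0.743 FPKM in NC, 0.525, 0.775 and 0.740 FPKM with SFRP2 siRNA, and 20.7, 19.1 and 18.7 FPKM with RAB6A siRNA. The 3 RAB6A siRNA libraries were all far above the other 6. The mean was 31.7-fold higher than in NC (log2 fold change 4.80 ± 0.15 SE, limma adjusted p = 1.1e-06), and the recovered reads were 58 to 86 in NC and 1670 to 2051 with RAB6A siRNA. T cell markers were at or near 0 in the same libraries (at most 0.0617 FPKM in sum). With the pseudocount 1 the log2 fold change was 3.67.

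Tnfsf9, the ligand of 4-1BB that antigen-presenting cells carry, spans bases 57105325 to 57107757 of chromosome 17 (+ strand). It was at 22.6, 20.9 and 21.7 FPKM in NC, 19.97, 18.02 and 19.84 FPKM with SFRP2 siRNA, and 151, 148 and 143 FPKM with RAB6A siRNA. All RAB6A siRNA libraries were above all others, and Tnfsf9 became the highest member of the family there. The mean was 6.78-fold that of NC (log2 fold change 2.75 ± 0.05 SE, limma adjusted p = 3.9e-07). Its exons share 14.9% of their bases with Gm11110 on the opposite strand, and whether the counting used the strand is not stated. Ligand and receptor did not rise by the same factor. The FPKM ratio of Tnfsf9 to Tnfrsf9 was 34.6, 46.3 and 29.2 in NC, 38.0, 23.3 and 26.8 with SFRP2 siRNA, and 7.28, 7.72 and 7.65 with RAB6A siRNA, and the last group did not overlap the others.

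Promoter sequences of RefSeq (GRCm38.p6) are shown for Tnfrsf9, the member with the largest rise, and for Tnfrsf1b, the highest member in NC, which fell. The window was the 250 bases before a start site, without annotated exon bases, in lower case from 5′ to 3′. Tnfrsf9 has 2 starts in the table, and the stretches lie at chr4:150919905-150920154 (+ strand), chr4:150927749-150927917 (+ strand) and chr4:145246871-145247120 (- strand).
Tnfrsf9 start 1: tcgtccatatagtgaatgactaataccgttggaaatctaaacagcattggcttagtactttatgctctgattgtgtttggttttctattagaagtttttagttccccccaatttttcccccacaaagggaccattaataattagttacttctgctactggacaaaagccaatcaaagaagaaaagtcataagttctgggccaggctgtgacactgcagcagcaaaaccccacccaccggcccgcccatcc
Tnfrsf9 start 2: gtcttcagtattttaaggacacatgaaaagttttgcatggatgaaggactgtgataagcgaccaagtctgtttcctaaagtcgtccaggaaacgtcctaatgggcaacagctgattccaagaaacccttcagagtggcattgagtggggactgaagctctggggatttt
Tnfrsf1b: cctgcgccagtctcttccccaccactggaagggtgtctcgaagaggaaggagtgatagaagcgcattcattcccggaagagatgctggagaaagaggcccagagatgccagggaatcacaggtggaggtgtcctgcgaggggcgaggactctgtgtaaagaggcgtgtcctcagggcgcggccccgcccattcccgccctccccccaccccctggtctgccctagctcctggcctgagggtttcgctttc
Each window of 250 bases was searched on both strands for a kappaB motif (3 G, 2 of any base, 3 T and 2 C) and an AP-1 motif (TGANTCA), and the matches named here do not overlap. Neither set of letters was found before the first start of Tnfrsf9 or before that of Tnfrsf1b. Before the second start of Tnfrsf9 both were found, GGGGATTTCC from position -43 and TGAGTCA from position -15, in bases that another transcript of Tnfrsf9 holds as exon. These bases follow the printed stretch, so that neither match is printed. Among all 32851 promoters of the table, 1.41% held the kappaB letters and 6.75% the AP-1 letters. Among the 27 promoters of the 23 members in the table, 2 held the former (Tnfrsf9 and Tnfrsf25) and 5 the latter (Tnfrsf8, Tnfrsf9, Tnfsf13, Tnfsf13b and Tnfsf14). Of these genes, Tnfrsf9 rose and Tnfsf13b fell with RAB6A siRNA against NC. Tnfrsf8, Tnfsf13 and Tnfrsf25, too low for the test, were also lower without overlap, Tnfrsf25 at no more than 4 reads per library. Tnfsf14 overlapped. A match is a match of letters and was not tested as a binding site.

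The receptors for TNF itself differed from each other. Tnfrsf1b, at bases 145213463 to 145246870 of chromosome 4 (- strand), was at 57.3, 58.8 and 64.0 FPKM in NC, 53.4, 54.6 and 53.0 FPKM with SFRP2 siRNA, and 24.9, 23.2 and 20.5 FPKM with RAB6A siRNA. The 3 groups did not overlap, and the RAB6A siRNA libraries were lowest. The mean was 2.62-fold lower than in NC (log2 fold change -1.39 ± 0.08 SE, limma adjusted p = 6.4e-06). Tnfrsf1a, on chromosome 6, was at 39.0, 39.2 and 40.2 FPKM in NC, 40.8, 37.3 and 37.0 FPKM with SFRP2 siRNA, and 37.2, 36.6 and 37.4 FPKM with RAB6A siRNA. Its NC and RAB6A siRNA libraries did not overlap, but the difference did not pass the test (log2 fold change -0.09 ± 0.05 SE, limma adjusted p = 0.123). It had the opposite sign with quantile normalization (0.08) and was called with the GC and length correction (-0.17, limma adjusted p = 0.0178). The FPKM ratio of Tnfrsf1b to Tnfrsf1a was 1.47 to 1.59 in NC, 1.31, 1.46 and 1.43 with SFRP2 siRNA, and 0.670, 0.634 and 0.548 with RAB6A siRNA. Thus Tnfrsf1b stood above Tnfrsf1a in all NC and SFRP2 siRNA libraries and below it in all RAB6A siRNA libraries. Their ligand Tnf was at 1055, 998 and 1096 FPKM in NC, 1033, 977 and 1004 FPKM with SFRP2 siRNA, and 624, 660 and 692 FPKM with RAB6A siRNA. It was lower in every RAB6A siRNA library (log2 fold change -0.67 ± 0.07 SE, limma adjusted p = 0.00012), and the log2 fold change was -1.11 with quantile normalization.

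The B cell survival axis moved in both directions. Tnfsf13b, which encodes BAFF, a cytokine that myeloid cells make and mature B cells need, was at 2.14, 2.15 and 2.48 FPKM in NC, 2.05, 2.26 and 2.77 FPKM with SFRP2 siRNA, and 0.605, 0.654 and 0.742 FPKM with RAB6A siRNA. It was 3.38-fold lower than in NC (log2 fold change -1.62 ± 0.14 SE, limma adjusted p = 2.9e-05), and the log2 fold change was -0.96 with the pseudocount 1. Tnfrsf13b, which encodes TACI, a receptor of BAFF and APRIL, was at 3.67, 3.06 and 3.42 FPKM in NC, 3.36, 3.26 and 3.31 FPKM with SFRP2 siRNA, and 8.64, 9.07 and 10.0 FPKM with RAB6A siRNA. It rose to a log2 fold change of 1.43 ± 0.09 SE (limma adjusted p = 8.6e-06). For both genes the RAB6A siRNA libraries lay outside the range of the other 6, the ligand below and the receptor above. The other receptors of these ligands were close to the detection limit, with at most 6 reads per library for Tnfrsf13c (BAFF receptor) and for Tnfrsf17 (BCMA).

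**Figure D3:**
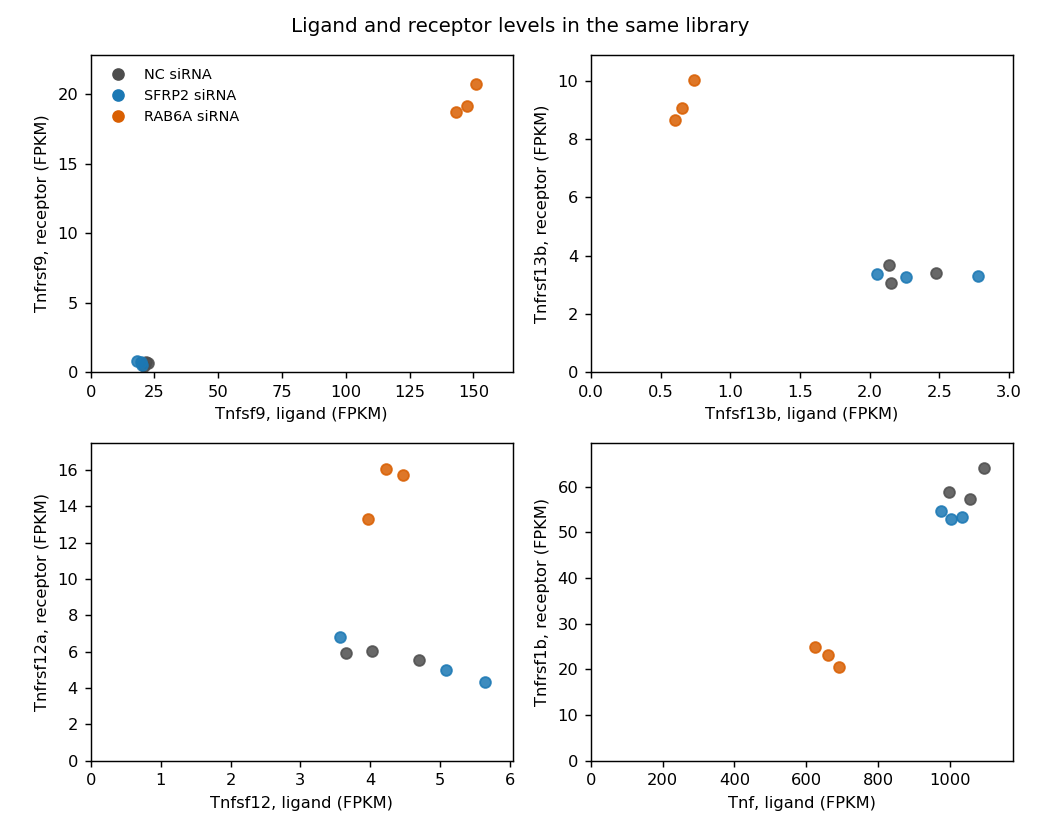
FPKM of a ligand (x axis) against that of its receptor (y axis) in each of the 9 libraries, for Tnfsf9 and Tnfrsf9, Tnfsf13b and Tnfrsf13b, Tnfsf12 and Tnfrsf12a, and Tnf and Tnfrsf1b. RAB6A siRNA libraries lay at higher ligand and receptor levels for the first pair, at a lower ligand and higher receptor level for the second, at a higher receptor level alone for the third, and at lower levels of both for the last.

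Tnfrsf12a, which encodes Fn14, a receptor induced in injured tissue, rose while its ligand did not pass the test. Tnfrsf12a was at 5.92, 5.54 and 6.03 FPKM in NC, 6.79, 5.02 and 4.35 FPKM with SFRP2 siRNA, and 15.7, 16.1 and 13.3 FPKM with RAB6A siRNA. The latter were the highest 3 libraries (log2 fold change 1.35 ± 0.09 SE, limma adjusted p = 8.1e-06). Tnfsf12, which encodes the ligand TWEAK, was at 3.65, 4.69 and 4.02 FPKM in NC, 3.56, 5.08 and 5.64 FPKM with SFRP2 siRNA, and 4.47, 4.22 and 3.97 FPKM with RAB6A siRNA. These groups overlapped throughout (log2 fold change 0.04 ± 0.11 SE, limma adjusted p = 0.747). With the GC and length correction the sign turned and the gene was called (log2 fold change -0.40, limma adjusted p = 0.00998). Of the exon bases of Tnfsf12, 48.3% belong also to the read-through gene Tnfsfm13 on the same strand, so that its level is uncertain. The plot of ligand against receptor levels shows these pairs.

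Among receptors of TRAIL, which can trigger apoptosis, and their relatives, the changes went both ways. Tnfrsf10b, the death domain receptor of TRAIL in the mouse, was at 2.99, 3.07 and 3.16 FPKM in NC, 3.67, 3.23 and 2.88 FPKM with SFRP2 siRNA, and 5.21, 5.14 and 7.02 FPKM with RAB6A siRNA. It rose 1.88-fold, with no overlap (log2 fold change 0.88 ± 0.12 SE, limma adjusted p = 0.00043). The ligand Tnfsf10 (TRAIL) was low in all groups, with 4 to 48 reads per library.

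Tnfrsf22, Tnfrsf23 and Tnfrsf26 lie side by side on the - strand of chromosome 7 between 143607659 and 143685872. The first pair encodes decoy receptors of TRAIL. Tnfrsf23 was at 22.1, 21.2 and 24.3 FPKM in NC, 19.6, 20.9 and 25.4 FPKM with SFRP2 siRNA, and 12.1, 13.8 and 13.6 FPKM with RAB6A siRNA, all below the other 6 libraries. It fell 1.71-fold against NC (log2 fold change -0.77 ± 0.08 SE, limma adjusted p = 6.9e-05). Tnfrsf26 was at 27.5, 28.0 and 27.4 FPKM in NC, 26.2, 27.0 and 28.4 FPKM with SFRP2 siRNA, and 22.1, 22.5 and 25.5 FPKM with RAB6A siRNA. Here the RAB6A siRNA libraries were lowest with a small gap (log2 fold change -0.24 ± 0.07 SE, limma adjusted p = 0.0125), and the call was lost with quantile normalization (-0.11, limma adjusted p = 0.165) and with the GC and length correction (-0.06, limma adjusted p = 0.369). Tnfrsf22, between them, was at 7.67, 7.20 and 7.87 FPKM in NC, 7.36, 8.03 and 9.12 FPKM with SFRP2 siRNA, and 7.68, 8.37 and 9.42 FPKM with RAB6A siRNA. Its groups overlapped, and it did not pass the test (log2 fold change 0.16 ± 0.09 SE, limma adjusted p = 0.136). The GC and length correction gave a call for it (0.38, limma adjusted p = 0.00233), as did leaving out RAB6A siRNA library 1 (0.23, limma adjusted p = 0.0481). These neighbors are related in sequence, and how reads that fit several genes were counted is not stated.

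A further pair of receptors did not pass the test against NC. Tnfrsf11a encodes RANK, the receptor through which macrophages turn into osteoclasts. It was at 6.70, 6.30 and 5.83 FPKM in NC, 6.65, 6.53 and 6.49 FPKM with SFRP2 siRNA, and 7.57, 6.38 and 7.25 FPKM with RAB6A siRNA (limma adjusted p = 0.124). It was called with the GC and length correction (log2 fold change 0.37, limma adjusted p = 0.00428) and without RAB6A siRNA library 2 (0.24, limma adjusted p = 0.0455). Its ligand Tnfsf11 was not analysed here, and its soluble decoy Tnfrsf11b (osteoprotegerin) had at most 24 reads in a library. Tnfrsf14, which encodes HVEM, the receptor of LIGHT, was at 3.49, 2.20 and 2.68 FPKM in NC, 2.19, 1.97 and 2.30 FPKM with SFRP2 siRNA, and 3.14, 2.32 and 1.76 FPKM with RAB6A siRNA, and its groups overlapped (limma adjusted p = 0.417).

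The remaining 16 members had means below 0.5 FPKM over the 9 libraries. They comprised 7 ligands and 9 receptors, with means of 0.00256 to 0.451 FPKM. Tnfrsf4 and Tnfrsf8 among them had means over 0.5 FPKM in NC and with SFRP2 siRNA. Of the 15 with recovered reads, 8 averaged under 10 reads per library. All 16 fell below the filter in RAB6A siRNA against NC, and 6 of them (37.5%) did not overlap between the groups, all 6 lower with RAB6A siRNA. Among all genes under the filter, 24.6% did not overlap, 16.1% higher and 8.53% lower with RAB6A siRNA. With 3 libraries against 3, the smallest p of an exact two-sided permutation test is 0.1, and each of the 6 reached it.

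Tnfrsf4, which encodes OX40, a costimulatory receptor of T cells, had 30, 48 and 54 reads in NC, 26, 21 and 45 with SFRP2 siRNA, and 2, 0 and 0 with RAB6A siRNA. Counted as read pairs, that is 66 pairs in NC and 1 in RAB6A siRNA libraries, a depth-scaled ratio of 53.8 with a 95% exact interval of 9.32 to 2160. Tnfrsf8, which encodes CD30, had 80, 84 and 96 reads in NC, 65, 107 and 72 with SFRP2 siRNA, and 12, 13 and 15 with RAB6A siRNA, a ratio of NC to RAB6A siRNA of 5.30 (3.29 to 8.95). Tnfsf18, the ligand of GITR, had 39, 30 and 36 reads in NC, 26, 41 and 28 with SFRP2 siRNA, and 0, 2 and 6 with RAB6A siRNA (ratio 10.8, 3.98 to 41.1). Tnfsf13, which encodes APRIL, had 26, 10 and 16 reads in NC, 16, 17 and 42 with SFRP2 siRNA, and 4, 5 and 2 with RAB6A siRNA (ratio 3.53, 1.42 to 10.5). These 4 genes were low in every RAB6A siRNA library, and their NC and SFRP2 siRNA libraries overlapped. The intervals cover counting error only. Without the filter, limma called all 4 (log2 fold changes -2.87, -1.69, -1.87 and -1.05, adjusted p = 0.00036, 0.0015, 0.003 and 0.041), and such fitted values are not bounds. Tnfsf13 shares 60.0% of its exon bases with Tnfsfm13 on the same strand, so that its level is uncertain. The remaining pair of genes without overlap, Tnfrsf25 and Tnfsf8, had at most 4 and 6 reads in an NC library.

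**Figure D4:**
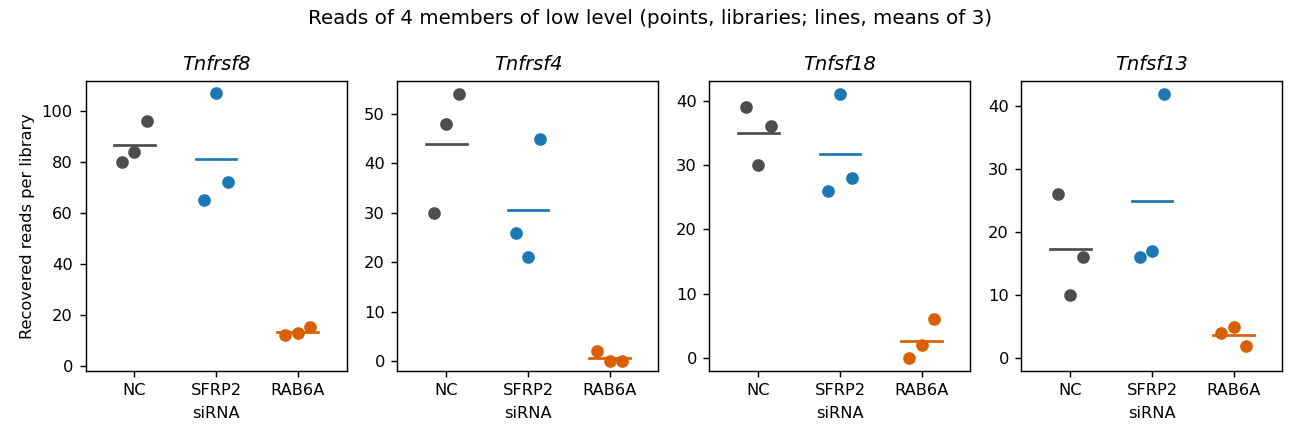
Recovered reads per library (y axis) of Tnfrsf8, Tnfrsf4, Tnfsf18 and Tnfsf13 in the 3 siRNA groups. Points are libraries and lines are means of 3. RAB6A siRNA libraries had 12 to 15, 0 to 2, 0 to 6 and 2 to 5 reads, below all libraries of the other groups.

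Some members of that set showed no such separation. Tnfsf14 (LIGHT) had 26 to 48 reads in NC, 24 to 28 with SFRP2 siRNA and 19 to 45 with RAB6A siRNA. Tnfrsf18 (GITR) and Tnfrsf21 (death receptor 6) had at most 11 and 22 reads in a library. Tnfsf4, the OX40 ligand, was found in 1 NC library, with 2 reads. Tnfrsf19 had at most 4 reads, and none with RAB6A siRNA. Tnfsf15 (TL1A) lay between 0.0801 and 0.245 FPKM, and no whole reads could be recovered for it.

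The comparison of SFRP2 siRNA with NC, the main question of the study, gave no call among the members. limma tested 16 members and called 0 at an adjusted p under 0.05, with or without the fold threshold, as for all 12017 genes tested (0.0%). The study itself reported genes that were higher and genes that were lower in this comparison. It used DESeq2 with the same adjusted p and fold thresholds, which differs from limma on FPKM and was not run here. At an unadjusted limma p under 0.05 there were 2 members, Tnfrsf1b and Tnfsf9, against 2220 genes (18.5%), and voom on the recovered reads called 47 genes, none of them a member. The groups did not overlap for 2 of the 16 members (12.5%), against 24.7% of all genes tested, and for 1 of the 14 under the filter, against 7.1% of all genes there. The latter gene was Tnfrsf25, a death domain receptor, with 4 reads in each NC library and 0 in each SFRP2 siRNA library. Counted as read pairs, a count of 0 allows up to 3 pairs per library, which is not below the NC count. Tnfrsf1b was lower in all 3 SFRP2 siRNA libraries (log2 fold change -0.16 ± 0.05 SE, limma adjusted p = 0.205), as was Tnfsf9 (-0.17 ± 0.06 SE, limma adjusted p = 0.209). The log2 fold changes of the 16 members ran from -0.34 (Tnfrsf14) to 0.19 (Tnfsf12), with a median absolute value of 0.0888 against 0.117 over all genes.

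RAB6A siRNA against SFRP2 siRNA used the same RAB6A siRNA libraries, and its results are therefore not independent of those against NC. Of 14 members tested, 9 (64.3%) were called, against 73.4% of all genes, and 6 (42.9%) with the fold threshold, against 31.1%. They were the 9 genes called against NC, with the same directions. Tnfrsf9 had a log2 fold change of 4.67, Tnfsf9 of 2.93, Tnfrsf12a of 1.48, Tnfrsf13b of 1.45 and Tnfrsf10b of 0.80. The lower genes were Tnfsf13b at -1.68, Tnfrsf1b at -1.23, Tnfrsf23 at -0.73 and Tnfrsf26 at -0.22. The call for Tnfrsf26 was lost with quantile normalization and without any of 4 single libraries (SFRP2 siRNA 2 and 3, RAB6A siRNA 1 and 2), with limma adjusted p of 0.0637 to 0.0832 in the latter, and its sign turned with the GC and length correction (0.02). Without SFRP2 siRNA library 1, Tnfsf12 was also called (-0.34, limma adjusted p = 0.0214). The GC and length correction called 4 further members against SFRP2 siRNA, Tnfsf12 (-0.70, limma adjusted p = 0.0105), Tnfrsf1a (-0.25, limma adjusted p = 0.00334), Tnfrsf11a (0.32, limma adjusted p = 0.00589) and Tnfrsf22 (0.27, limma adjusted p = 0.0493). The groups did not overlap for 9 of 14 members (64.3%), against 77.0%, and for 4 of 15 under the filter (Tnfrsf4, Tnfrsf8, Tnfsf13 and Tnfsf18), against 23.8%.

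Of the 17 further genes of the superfamily that have other names, 16 were measured. With SFRP2 siRNA, limma called 0 of 8 tested, and voom on the recovered reads called Cd40, lower with SFRP2 siRNA. Cd40, a costimulatory receptor of antigen-presenting cells, was at 68.0, 65.5 and 66.7 FPKM in NC and 52.8, 55.5 and 46.6 FPKM with SFRP2 siRNA (limma log2 fold change -0.37 ± 0.07 SE, adjusted p = 0.163). With RAB6A siRNA against NC, 8 of 9 tested (88.9%) were called, 5 higher and 3 lower, against 74.1% of all genes tested. Cd27 (log2 fold change 2.42), Eda2r (1.71), Lta (1.29), the death receptor Fas (0.36) and Cd40 (0.34) were higher. Cd27 was under 0.5 FPKM on average in NC (0.352) and with SFRP2 siRNA (0.421). It was tested because of the RAB6A siRNA libraries (2.32 FPKM), in which it was high, and counts in this share. Besides Tnf, the lymphotoxin genes Ltb (-0.63) and Ltbr (-0.57) were lower, whereas Lta, the partner of Ltb in the ligand trimer, was higher. Against SFRP2 siRNA all 9 tested, again with Cd27, were called, 6 higher and 3 lower, against 73.4% of all genes tested.

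Downstream of the receptors, all 44 genes of a list of adaptors, kinases, caspases and NF-kappaB regulators were tested. With SFRP2 siRNA against NC 0 were called. With RAB6A siRNA 36 (81.8%) were called against NC, 18 in each direction, and 35 (79.5%) against SFRP2 siRNA, 17 higher and 18 lower. These shares were near those of all genes tested, 74.1% and 73.4%. Lower were Ripk1 (log2 fold change -1.95), a kinase of the TNF receptor 1 complex, the death domain adaptor Fadd (-1.88), the NF-kappaB inhibitor Tnfaip3 (-0.997) and the BCL-2 family gene Bid (-0.99). Higher were the adaptors Traf4 (1.41) and Traf5 (1.06) and the kinases Map3k5 (1.32) and Map3k14 (1.10), the latter of which drives noncanonical NF-kappaB signaling. Ripk1 was at 10.6, 11.7 and 10.5 FPKM in NC and at 2.49, 2.68 and 3.11 FPKM with RAB6A siRNA, with no overlap. Against SFRP2 siRNA the same genes led the list in each direction, except that Mapk8 (-1.09) took the place of Bid.

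In the same RAB6A siRNA libraries, 4 of 8 macrophage markers (50.0%) were called against NC, where 74.1% of all genes tested were called. Lyz2 (log2 fold change -2.03), Csf1r (-1.44) and Spi1 (-1.05) were lower and Ptprc (0.17) was higher, while Adgre1, Cd68, Cd14 and Itgam did not pass the test. Of 6 genes of the LPS response, 5 (83.3%) were called, near the share of all genes. Acod1 (-1.98), Cxcl10 (-1.14) and Il6 (-0.94) were lower, Ptgs2 (0.68) and Il1b (0.21) were higher, and Nos2 did not pass. The fibroblast genes Col1a2 and Dcn, tested because of the RAB6A siRNA libraries, were also called higher against NC. Col1a1 did not pass the test (log2 fold change -0.08, limma adjusted p = 0.86). The part of all these genes in the changes of the TNF superfamily was not tested.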

How the data were processed

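Paired-end mRNA-seq of 9 libraries was analysed. The authors deposited FPKM per Ensembl gene and library, and per the labels HISAT2, featureCounts and Subread were used, with versions, genome build and annotation not given in the sources used here. Of 28137 identifiers, 27533 were named from GENCODE M21 (GRCm38). FPKM multiplied by exon length gave whole reads within 0.03 for 27027 genes (98.2% of those named), 28 members among them. These reads were used for depth, low genes and voom.

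Differential expression was tested with limma 3.58.1 (R 4.3.3) on log2(FPKM + 0.1), eBayes with trend, mean FPKM of at least 0.5, and Benjamini-Hochberg adjustment over all genes. A fold change on this scale understates changes of low genes. The fit was tested on simulated data. Members with a mean of at least 0.5 FPKM were named with all values, others by range or, without overlap, with reads. Of the other lists, up to 4 called genes per direction were named, plus Tnf, Ltbr, Cd40 and Fas. Members and lists were chosen with earlier results of these data known. Alternatives were the pseudocounts 1 and 0.01, other filters, median-of-ratios and quantile scaling, all 9 libraries, a replicate block, voom, a GC and length correction (splines, 5 df) and each library left out. Python 3.11.15 with pandas 2.3.3 and scipy 1.17.1 was used. The summed level of B cell markers is not reported here.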

Additional observations from a re-analysis of the deposited data

How the results depend on the processing

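With RAB6A siRNA, 8 to 13 members were called against NC and against SFRP2 siRNA over all alternatives, and 0 with SFRP2 siRNA against NC. The count was 13 without a filter, 12 with the GC and length correction and 8 with quantile normalization. Without a filter, more members were tested than the 14 of the main test. There, 40.4% of all genes were called against NC and 39.8% against SFRP2 siRNA. The shares of all genes were 74.6% and 73.8% with the GC and length correction, and 73.5% in each comparison with quantile normalization. Of the 17 further superfamily genes, voom called 1 with SFRP2 siRNA (47 over all genes), where the main test called 0 of either. Same-numbered libraries did not deviate together (mean correlation -0.0102), and with the replicate block 9, 9 and 0 members were called, as without it. Signs of log2 fold changes turned for these genes, and the cause was not tested. Of these, Tnfrsf26 against SFRP2 siRNA alone had passed the main test. With SFRP2 siRNA against NC, the GC and length correction gave 0.0802 for Tnfrsf1a, -0.0342 for Tnfsf13b, 0.0307 for Tnfrsf13b and 0.0103 for Tnf, for which quantile normalization gave 0.00413. Quantile normalization gave 0.0823 and 0.0834 for Tnfrsf1a with RAB6A siRNA against NC and against SFRP2 siRNA, and -0.0337 for Tnfrsf14 against SFRP2 siRNA. The GC and length correction gave -0.40 for Tnfsf12 against NC, and -0.31 for Tnfrsf14 and 0.0158 for Tnfrsf26 against SFRP2 siRNA. With single libraries left out, log2 fold changes of SFRP2 siRNA against NC ran from -0.0465 to 0.28 for Tnfrsf9, -0.10 to 0.24 for Tnfrsf8, -0.0540 to 0.00457 for Tnfrsf26, -0.15 to 0.0343 for Tnfrsf23, -0.061 to 0.15 for Tnfsf13b, -0.0118 to 0.16 for Tnfrsf10b, -0.0949 to 0.0326 for Tnfrsf13b and -0.31 to 0.00269 for Tnfrsf12a. Those of RAB6A siRNA ran from -0.0422 to 0.13 for Tnfsf12 against NC, and against SFRP2 siRNA from -0.0853 to 0.31 for Tnfrsf14 and -0.0213 to 0.14 for Tnfrsf22. Depth limits the low members, 8 of which averaged under 10 reads per library.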
